A study of Mus musculus with 6 samples.

Results

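The 9 genes described here encode proteins of ion channels in the plasma membrane of T cells, and were chosen by symbol: the potassium channel pores Kcna3, Kcnn4 and Kcnk5, the potassium channel beta subunit Kcnab2, the TRP channels Trpm7 and Trpv2, the ATP-gated channels P2rx7 and P2rx4, and the volume-regulated anion channel subunit Lrrc8a. They are 9 of 52550 genes and 57 of 131146 transcripts in the tables. RNA was sequenced from wild type mouse splenic CD3+ T cells that were activated with antibodies to CD3 and CD28 for 24 h, in 3 samples without a compound (TCR alone) and in 3 samples with the small molecule DMGV (dimethylguanidino valeric acid) at a labelled dose of 100 ng/ml (TCR+DMGV). The labels name the compound DMGV, whereas the study's text describes this sequencing with LNY1, a factor purified from fibroblast medium, at that same dose, and gives doses of DMGV in molar units elsewhere, and which of them was in these cultures cannot be told apart here. No resting cells are among the 6 samples, so every level below is that of an activated T cell.

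Ion channels set the membrane potential of a T cell and, through it, the calcium signal that follows engagement of the T cell receptor (TCR). Calcium enters through store-operated channels, and potassium that leaves through Kcna3 (the voltage-gated channel Kv1 type) and Kcnn4 (opened by calcium bound to calmodulin) keeps the membrane negative enough for calcium to go on entering. Kcnk5 is a leak channel of the family whose subunits carry a pair of pore domains, Trpm7 joins a magnesium- and calcium-permeable pore to a kinase, Trpv2 is a calcium-permeable cation channel, P2X receptors open when ATP binds outside the cell, and LRRC8 proteins form the channel that lets chloride and small osmolytes out of a swollen cell.

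The cells carried the RNA of their label. All 12 T cell markers were above 1 FPKM on average (FPKM, fragments scaled to gene length and library total). Trbc2 led them with a mean of 643 FPKM, and the early activation marker Il2ra, a subunit of the interleukin 2 receptor, had 155 FPKM. Of the B cell markers, Ms4a1 and Pax5 stayed at or under 0.227 FPKM in every sample, whereas Cd79b, a signalling chain of the B cell receptor, lay between 3.29 and 4.92 FPKM and the immunoglobulin gene Ighm between 108.6 and 126.5 FPKM. All 5 neutrophil markers had no count, and of the macrophage and monocyte markers Cd14 was at 0 in every sample, while Csf1r, a receptor of macrophages, had a mean of 1.42 FPKM and Cd68 lay between 1.05 and 1.86 FPKM. Of these B cell and macrophage markers, those other than Ighm and Csf1r are named after their values were seen. The summed FPKM of the T cell markers was 1797, 1800 and 2072 in TCR alone and 2154, 1932 and 2008 in TCR+DMGV. Of the 12 T cell markers 11 had an estimate above 0 in TCR+DMGV against TCR alone (median log2 fold change 0.11) and 0 passed the threshold of edgeR's test. Of the 8 activation markers 0 passed either, and 2 had an unadjusted p under 0.05, a larger share than the 3.19% of all tested genes. The proliferation marker Mki67 had 45.4, 38.4 and 32.5 FPKM in TCR alone and 26.8, 28.0 and 27.5 FPKM in TCR+DMGV, and the early response gene Nr4a1 had 77.9, 73.4 and 90.3 FPKM in TCR alone and 110.7, 94.7 and 91.9 FPKM in TCR+DMGV. The groups did not overlap for either gene, as for 8.86% of all tested genes in CPM, and both are named after their values were seen. The part of these markers in the channel values was not tested, and in bulk RNA fewer cells of a type and less RNA per cell cannot be told apart.

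Counts per sample summed to 37758725, 41593014 and 40327431 in TCR alone and to 43587243, 43718867 and 40492457 in TCR+DMGV. A pair of libraries stood apart from the rest on the first principal component of log2 CPM (CPM, counts scaled to library totals adjusted by the TMM method), which held 32.2% of the variance. TCR alone replicate 3 had a score of 42.1 and TCR+DMGV replicate 1 a score of 42.9, and the other 4 libraries lay between -34.9 and -10.5. As 1 library of each group was involved, this component did not follow the compound. The gene-level changes of the members are given with and without both libraries. Correlations, transcript changes and the changes of single genes outside the members include both libraries.

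The potassium pores share a short stretch that the other members lack, the selectivity filter through which potassium passes without its water. It was searched on the coding strand, in frame, as ACNNTNGGNTANGGN or ACNNTNGGNTTNGGN in the complete coding sequence of 21620 genes of the GENCODE M21 annotation, and either form was present in 0.601% of them (each form in 0.319%). The stretches found in the members are printed with 30 coding bases on each side, to show that 1 copy stands in Kcna3 and in Kcnn4 and 2 copies in Kcnk5, and the capitals mark the motif.
Kcna3, from codon 397: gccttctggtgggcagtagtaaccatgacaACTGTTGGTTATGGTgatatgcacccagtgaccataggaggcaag
Kcnn4, from codon 248: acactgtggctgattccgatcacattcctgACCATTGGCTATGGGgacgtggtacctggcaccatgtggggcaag
Kcnk5, from codon 98: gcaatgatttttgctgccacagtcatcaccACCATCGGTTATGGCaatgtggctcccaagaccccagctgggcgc
Kcnk5, from codon 203: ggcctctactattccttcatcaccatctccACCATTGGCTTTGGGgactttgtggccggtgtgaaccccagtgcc
The second copy in Kcnk5 is of the form with TT in place of TA. Neither form was found in Kcnab2, Trpm7, Trpv2, P2rx7, P2rx4 or Lrrc8a. Among the channel gene lists, 33 of 40 voltage-gated potassium channels, 5 of 8 calcium- or sodium-activated ones, 12 of 14 two-pore-domain channels and 14 of 15 inward rectifiers had a match, and no gene of the other channel lists did. These windows hold letters only, and a gene without a match can carry a filter that is spelled otherwise.

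Kcnab2 was the most abundant of the members per length, with 51.3 ± 3.54 FPKM in TCR alone and 50.6 ± 2.07 FPKM in TCR+DMGV (SD, n = 3 in each group, as for all values below). Kcnn4 followed with 26.5 ± 4.72 and 29.8 ± 1.90 FPKM, and Kcna3 with 14.5 ± 1.81 and 16.1 ± 1.18 FPKM. Each of these 3 lay above the next gene in all 6 samples, with no overlap between their values. Trpv2 (mean over 6 samples 7.45 FPKM), Kcnk5 (5.90), Trpm7 (5.32) and Lrrc8a (4.78) formed a middle group in which no neighbours in the order were separated beyond their spread. Below them, P2rx4 had 1.61 FPKM and P2rx7 0.451 FPKM, and both steps down were clear of overlap. Within the middle group, Trpv2 (6.81 to 8.28 FPKM) lay clear of Lrrc8a (4.46 to 5.30 FPKM) and above Kcnk5 in all 6 samples, although the ranges of Trpv2 and Kcnk5 overlapped. The FPKM of the members ran close to CPM per kilobase of all annotated exons of a gene, retained introns included. These exons cover 5115 bases for Kcnn4, whose Kcnn4-202 has 1945, and 7025 for P2rx4, whose P2rx4-202 has 1887. An order by the length of the main transcripts can differ and was not computed.

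**Figure D1:**
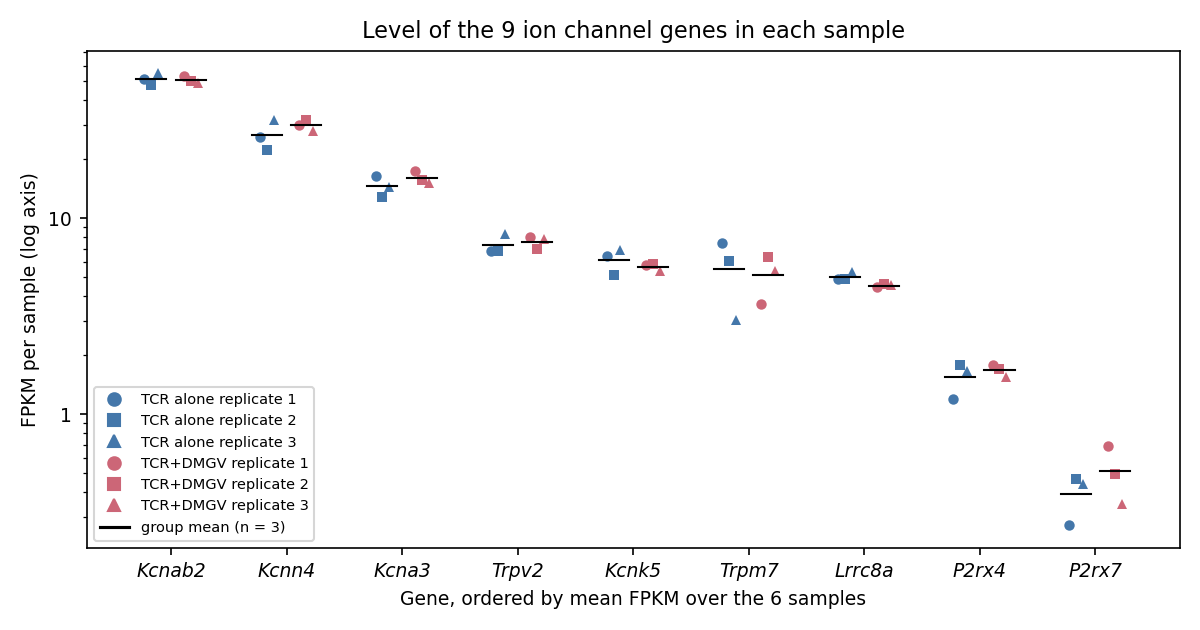
Level of the 9 genes in FPKM (vertical log axis) in each of the 6 samples, with the genes ordered by their mean over all samples. Points are samples, coloured by group and shaped by replicate, and bars are group means (n = 3); Kcnab2 lies near 51 FPKM, P2rx7 at 0.69 or below, and the groups lie over each other for every gene except Lrrc8a.

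Among 194 channel genes of 12 families, 23 had a mean of at least 1 FPKM, and 8 of the 9 members were among them. The members held 53.1% to 55.2% of the summed FPKM of all channel genes in each sample. Kcnn4 alone made up at least 99.8% of the calcium- or sodium-activated potassium channel RNA in each sample, Kcnab2 at least 98.3% of that of the accessory subunits, and Kcna3 63.4% to 70.6% of that of the voltage-gated potassium channels. In that last family, Kcnq5 came next with 5.10 FPKM, and Kcnh2 with 0.677 FPKM. Kcnk5 led the two-pore-domain channels with 65.7% to 77.3%, ahead of Kcnk6 at 1.12 FPKM and Kcnk7 at 0.901 FPKM. P2rx4 held 66.2% to 75.2% of the P2X RNA and P2rx7 16.9% to 25.7%, while P2rx5 and P2rx3 had 0.0607 and 0.0501 FPKM. Lrrc8a, the obligatory subunit of the volume-regulated channel, was only the third of its family in level (20.9% to 23.7% of the summed FPKM), below its partner subunits Lrrc8c (8.94 FPKM) and Lrrc8b (5.05 FPKM). Channel genes outside the members and their families that ranked among them included the proton channel Hvcn1 (15.4 FPKM), the mechanosensitive channel Piezo1 (13.6 FPKM), Ano6 (11.1 FPKM), a scramblase and ion channel, the acid-activated chloride channel Tmem206 (11.0 FPKM) and the large-pore channel Panx1 (8.52 FPKM), named after its values were seen. No inward rectifier reached 1 FPKM, with Kcnj10 the highest at 0.137 FPKM and Kcnj14 at 0.122 FPKM.

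**Figure D2:**
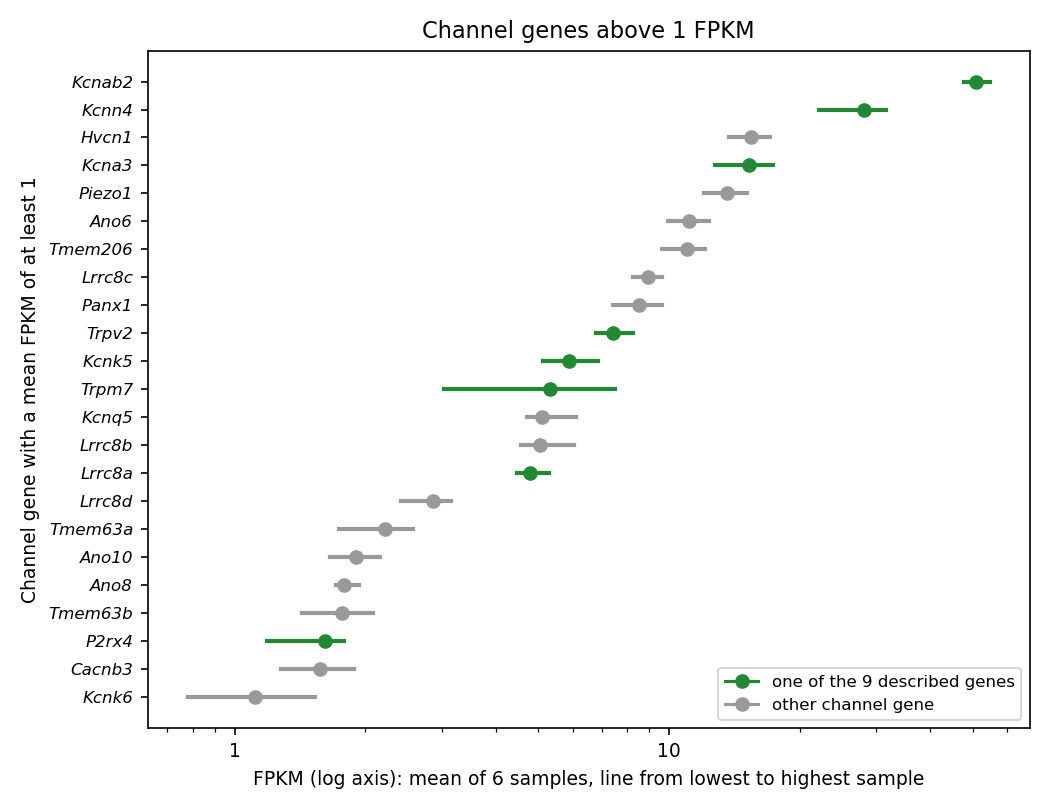
Mean FPKM over the 6 samples (horizontal log axis) of the 23 channel genes with a mean of at least 1 FPKM. Points are means and lines run from the lowest to the highest sample; the described genes (green) include Kcnab2, Kcnn4 and Kcna3 at 15.3 FPKM or more, and Trpm7 has the widest line among the genes above 5 FPKM.

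The comparison of TCR+DMGV with TCR alone asked whether the compound altered RNA levels in T cells activated through the TCR. None of the 9 channel genes passed the threshold (edgeR's quasi-likelihood test with Benjamini-Hochberg adjustment over 14786 genes, adjusted p = 0.999 for each), and all 9 had passed the filter on low counts. Of all tested genes, 2 passed, or 0.0135%. At an unadjusted p under 0.05, 0 of 9 members and 3.19% of all genes were found. DESeq2 and limma called 0 members too. The point estimate was above 0 for 5 members and below 0 for 4, with a median log2 fold change of 0.07 beside 0.00243 over all tested genes. The groups did not overlap in CPM for 1 of 9 members (Lrrc8a), against 8.86% of all tested genes. As the genes were proposed with this contrast known, these counts are a description. A p above the threshold does not show that levels were equal, and the 95% intervals differ in width. That of Kcnab2 ran from -0.16 to 0.16 on the log2 scale, and that of Trpm7 from -0.91 to 0.72.

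**Figure D3:**
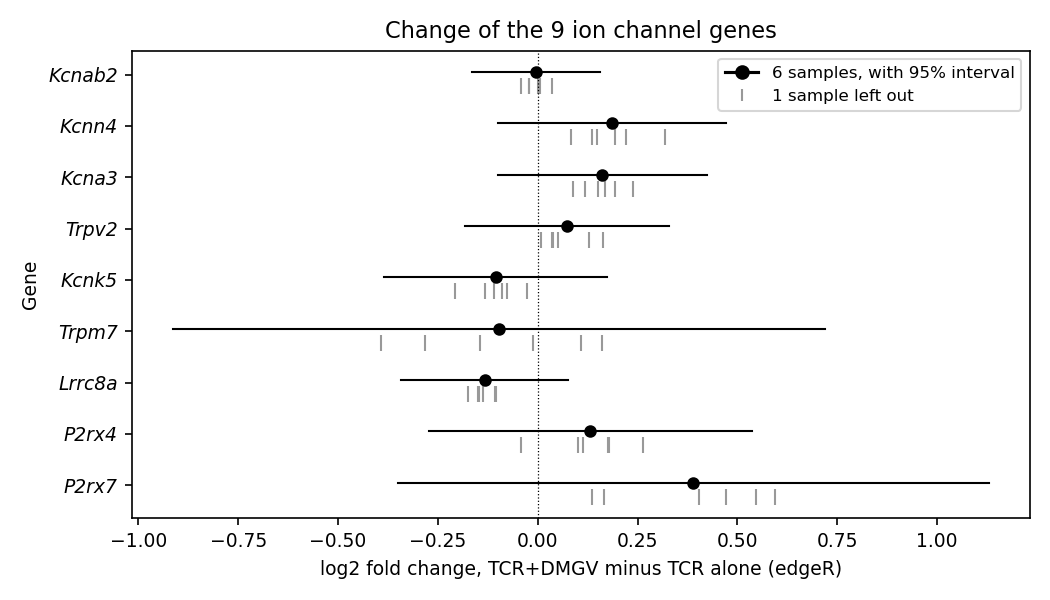
Log2 fold change (TCR+DMGV minus TCR alone, horizontal axis) of the 9 genes by edgeR. Points with lines are the estimates from all 6 samples with their 95% intervals, all of which include 0, and grey ticks are the estimates with 1 sample left out, which lie on both sides of 0 for Kcnab2, Trpm7 and P2rx4.

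Of the potassium pores, Kcna3 (ENSMUSG00000047959.4, chr3:107036169-107038070, GRCm38, forward strand) is a gene of 1 exon with 1 transcript of 1902 bases, 1584 of them coding. Its level in TCR alone was 34.7, 27.8 and 30.1 CPM, and that in TCR+DMGV 36.4, 34.2 and 33.0 CPM. The groups overlapped by 1 sample, TCR alone replicate 1. The log2 fold change was 0.16 with a standard error of 0.11, and without any 1 sample it lay between 0.09 and 0.24 (0.11 without both libraries that stood apart).

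Kcnn4 (ENSMUSG00000054342.8, chr7:24370263-24386690, forward strand) had 147, 130 and 177 CPM with TCR activation alone, compared with 169, 184 and 163 CPM with DMGV. The highest TCR alone sample, replicate 3, lay inside the range of TCR+DMGV, and the other 2 lay below it. The log2 fold change was 0.19 with a standard error of 0.12, and 0.08 without TCR alone replicate 2. It was 0.32 without TCR alone replicate 3 (unadjusted p = 0.0131, adjusted p = 0.649 in edgeR's test) and 0.33 without both libraries that stood apart (unadjusted p = 0.0197, adjusted p = 0.733), the only settings in which a member had an unadjusted p under 0.05. Its main transcripts Kcnn4-202 and Kcnn4-201 have the same coding sequence of 1275 bases, and Kcnn4-202 held 79.8% to 83.8% of the counts in every sample.

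Kcnk5 (ENSMUSG00000023243.9, chr14:20140057-20181809, reverse strand) had 24.5, 20.0 and 25.7 CPM with TCR activation alone, compared with 21.8, 22.6 and 20.9 CPM with DMGV. All TCR+DMGV values lay within the range of TCR alone. Its log2 fold change was -0.10 with a standard error of 0.12. It was -0.21 without TCR alone replicate 2, -0.03 without TCR alone replicate 3 and -0.03 without both libraries that stood apart. All its counts were on Kcnk5-201, and the noncoding Kcnk5-202 had 0 counts in every sample.

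Kcnab2 (ENSMUSG00000028931.11, chr4:152390742-152477871, reverse strand) encodes a cytosolic beta subunit, related to aldo-keto reductases, that binds voltage-gated channels of the Kcna3 family. It had 320, 305 and 335 CPM with TCR activation alone, compared with 325, 317 and 314 CPM with DMGV, a log2 fold change of -0.00477 with a standard error of 0.068 (0.0175 without both libraries that stood apart). The highest sample was 1.10 times the lowest, and its spread within groups was smaller than that of all but 2.73% of tested genes. The gene Nphp4 overlaps the span of Kcnab2 on the other strand without sharing exon bases, and had 305 to 392 counts per sample.

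The steady total of Kcnab2 was divided very unevenly among its transcripts. An exon of 42 bases (chr4:152434782-152434823, GRCm38, reverse strand, coding bases 78 to 119) is present in Kcnab2-207 and Kcnab2-202, which share 1 coding sequence of 1101 bases, and absent from Kcnab2-201 and Kcnab2-205, which share 1 of 1059 bases. It is printed here in capitals as the part by which these coding forms differ.
Kcnab2 exon of 42 bases: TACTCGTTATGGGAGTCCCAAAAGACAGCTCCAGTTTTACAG
Transcripts with this exon took 34.4%, 62.2% and 2.55% of the counts without the compound and 32.2%, 61.5% and 30.8% with it. The share was above 60% in replicate 2 of each group and lowest in TCR alone replicate 3, so that samples of 1 group differed more than the groups did. Kcnab2-207 had 7616 and 8162 counts in the replicates numbered 2 and at most 30 in the other 4 samples, where Kcnab2-202 or Kcnab2-201 had the counts instead. Transcript counts are estimates that divide reads among transcripts sharing most of their bases, and the part of that step in these shares was not tested.

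The TRP channel Trpm7 (ENSMUSG00000027365.14, chr2:126791565-126876230, reverse strand) was the most variable member of the middle group. It had 94.7, 78.6 and 37.9 CPM with TCR activation alone, compared with 45.6, 81.7 and 70.1 CPM with DMGV. The low values belonged to TCR alone replicate 3 and TCR+DMGV replicate 1, the libraries that stood apart on the first component, and the other 4 had on average 1.95 times as much. Of all tested genes, 17.2% were likewise lower in both of these libraries than in the other 4. Trpm7 was the only member of that kind, and Kcnab2 the only one higher in both than in the rest, as were 9.29% of tested genes. The log2 fold change of Trpm7 was -0.10 with a standard error of 0.35, and -0.19 without both libraries. Leaving out TCR alone replicate 1 gave 0.16, and leaving out TCR+DMGV replicate 1 gave 0.11. The cause of the split between libraries was not tested. Trpm7-202 and Trpm7-201 are coding transcripts of 39 exons that differ by 3 coding bases at an exon start, and Trpm7-201 had 340 and 122 counts in the libraries that stood apart and 1252 to 1547 in the others. Trpm7-202 had 1126 to 2248 counts over the 6 samples.

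**Figure D4:**
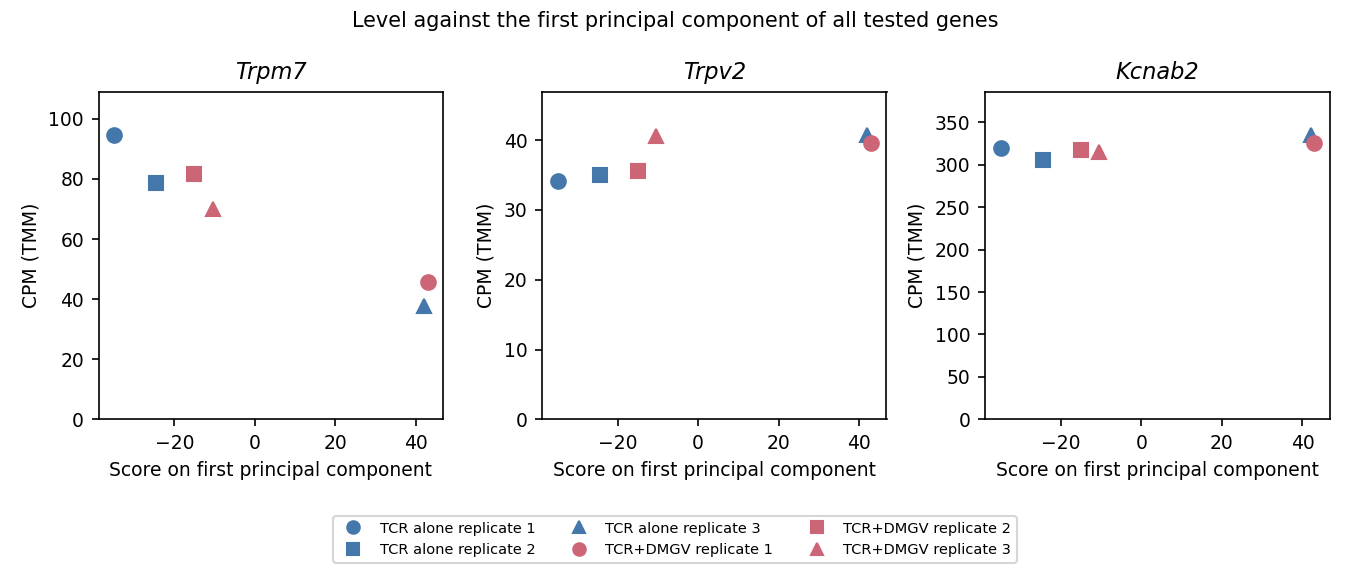
CPM of Trpm7, Trpv2 and Kcnab2 (vertical axes from 0) against the score of each library on the first principal component of all tested genes. Each point is a library, coloured by group and shaped by replicate; at the right, TCR alone replicate 3 and TCR+DMGV replicate 1 have Trpm7 at 37.9 and 45.6 CPM, below the other 4 libraries, and Kcnab2 slightly above them.

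Trpv2 (ENSMUSG00000018507.16, chr11:62574486-62600515, forward strand) had 34.2, 35.0 and 40.8 CPM with TCR activation alone, compared with 39.5, 35.6 and 40.6 CPM with DMGV. All TCR+DMGV values lay within the range of TCR alone, and the log2 fold change was 0.07 with a standard error of 0.11 (0.0072 without TCR alone replicate 1, 0.16 without TCR alone replicate 3 and 0.14 without both libraries that stood apart). Its coding transcripts Trpv2-201 and Trpv2-202 have the same 2268 coding bases and differ outside them. Trpv2-202 had 793, 1147 and 1361 counts with TCR activation alone, compared with 0, 1081 and 1001 counts with DMGV, the 0 in replicate 1. In that library 54.8% of the counts were on transcripts without a coding sequence, against 7.05% to 19.6% in the other 5. Trpv2-201 had 250, 73 and 80 counts with TCR activation alone, compared with 796, 342 and 375 counts with DMGV, with no overlap between groups. Its log2 fold change was 1.78 with a standard error of 0.66 (unadjusted p = 0.0374, adjusted p = 1 in edgeR's test over 38256 transcripts). It was the 1 member transcript of 30 tested with an unadjusted p under 0.05, beside 3.21% of all tested transcripts.

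Of the ATP-gated channels, P2rx7 (ENSMUSG00000029468.17, chr5:122643911-122691432, forward strand), which opens at high ATP and can widen to a large pore, was the scarcest member. It had 69, 131 and 121 counts with TCR activation alone, compared with 204, 147 and 96 counts with DMGV, or 1.82, 3.21 and 2.92 against 4.58, 3.41 and 2.42 CPM. The highest value was 2.52 times the lowest, both in replicates numbered 1, and the groups overlapped. The log2 fold change was 0.39 with a standard error of 0.31, and 0.13 (without TCR+DMGV replicate 1) to 0.59 (without TCR+DMGV replicate 3) with 1 sample left out. Without both libraries that stood apart, 1 of which held its highest value, it was 0.22. The 95% interval included 0.

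P2rx7 has alternative first coding exons, which are shown because the counts fell on either of them. P2rx7-203 begins with 125 coding bases at chr5:122644074-122644198 and P2rx7-208 with 116 coding bases at chr5:122650424-122650539 (GRCm38, forward strand), and their last 1661 coding bases are the same. The capitals mark the start codon.
P2rx7-203 first coding exon: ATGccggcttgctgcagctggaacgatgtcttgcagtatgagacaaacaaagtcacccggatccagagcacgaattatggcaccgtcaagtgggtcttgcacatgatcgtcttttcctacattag
P2rx7-208 first coding exon: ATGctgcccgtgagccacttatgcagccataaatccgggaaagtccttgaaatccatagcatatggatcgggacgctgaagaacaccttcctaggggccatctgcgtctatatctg
Transcripts with the upstream exon had 0, 76 and 79 counts with TCR activation alone, compared with 0, 39 and 65 counts with DMGV. P2rx7-208, with the inner exon, had 49, 48 and 33 counts with TCR activation alone, compared with 115, 99 and 14 counts with DMGV. Replicate 1 of each group was thus listed with the inner exon alone among coding transcripts, and the other 4 samples had both. P2rx7-201 had 0 counts in every sample, and the retained-intron transcript P2rx7-205 had 7 to 89.

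P2rx4 (ENSMUSG00000029470.15, chr5:122707544-122729738, forward strand), a neighbour of P2rx7 on chromosome 5 with a higher affinity for ATP, had 9.43, 14.5 and 12.9 CPM with TCR activation alone, compared with 13.95, 13.8 and 12.6 CPM with DMGV. Its lowest value was in TCR alone replicate 1, as for P2rx7, and the remaining 5 samples lay close together. The log2 fold change was 0.13 with a standard error of 0.17, changing to -0.04 when TCR alone replicate 1 was left out and to 0.14 when both libraries that stood apart were. An exon of 81 bases (chr5:122724594-122724674, forward strand) is present in P2rx4-201 and absent from P2rx4-202, and is printed as the coding difference between its main transcripts.
P2rx4 exon of 81 bases: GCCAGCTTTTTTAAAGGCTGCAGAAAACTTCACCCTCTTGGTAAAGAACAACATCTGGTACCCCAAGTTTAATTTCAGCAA
Transcripts with this exon took 57.0%, 53.9% and 70.8% of the counts without the compound and 52.2%, 38.4% and 37.3% with it. The groups did not overlap, by a margin of less than 2 percentage points between TCR alone replicate 2 and TCR+DMGV replicate 1, and the exon's share itself was not tested. Of all single transcripts compared by their share, 9.32% had groups that did not overlap. P2rx4-201 had 137, 314 and 276 counts with TCR activation alone, compared with 261, 105 and 60 counts with DMGV, which overlapped, and its log2 fold change of -0.87 had a standard error of 0.61. Neither P2rx4-201 nor P2rx4-202 passed the test across transcripts (adjusted p = 1 in edgeR's test).

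Lrrc8a (ENSMUSG00000007476.18, chr2:30237715-30263790, forward strand) had 23.4, 24.2 and 25.0 CPM with TCR activation alone, compared with 21.2, 22.6 and 22.5 CPM with DMGV. All TCR+DMGV samples lay below all TCR alone samples, as they did for 3.94% of tested genes. Its spread within groups was smaller than that of all but 2.46% of tested genes, and the difference was small, a log2 fold change of -0.13 with a standard error of 0.089 (unadjusted p = 0.176, adjusted p = 0.999 in edgeR's test). As the groups did not overlap, its sign could not turn with 1 sample left out. The estimate then lay between -0.17 and -0.10, and was -0.08 without both libraries that stood apart. Lrrc8a shares exon bases with Gm28035 on the same strand (0 to 24 counts per sample) and with the antisense gene 1700084E18Rik (1 to 21 counts), and reads of overlapping genes could have been counted for either. Lrrc8a-201 held 92.8% to 100% of the counts, and Lrrc8a-202, with the same 2430 coding bases, had 75 counts in TCR alone replicate 3 and at most 2 elsewhere.

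Across transcripts, 0 of 30 tested member transcripts passed the threshold, and 0 of 38256 did in all (0%), with 1229 transcripts at an unadjusted p under 0.05. Whether the transcripts of a gene moved apart from each other was tested for the 6 members with at least 2 tested transcripts (Kcnab2, Trpm7, Trpv2, P2rx4, P2rx7 and Kcnn4), and 0 of 6 passed (edgeR's diffSpliceDGE, adjusted p = 1 for each), beside 1.58% of 7783 genes. None of the 6 had an unadjusted p under 0.05, beside 582 of the 7783 genes. In share of the gene's counts, the groups did not overlap for 1 of 27 member transcripts (Trpv2-201), beside 9.32% of 31381 transcripts. Among these 6 genes, Kcnn4 had the smallest spread of shares, with an SD of at most 2.11 percentage points within a group for any of its transcripts, whereas that of Trpv2-202 reached 38.6 and that of Kcnab2-207 35.3 percentage points.

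**Figure D5:**
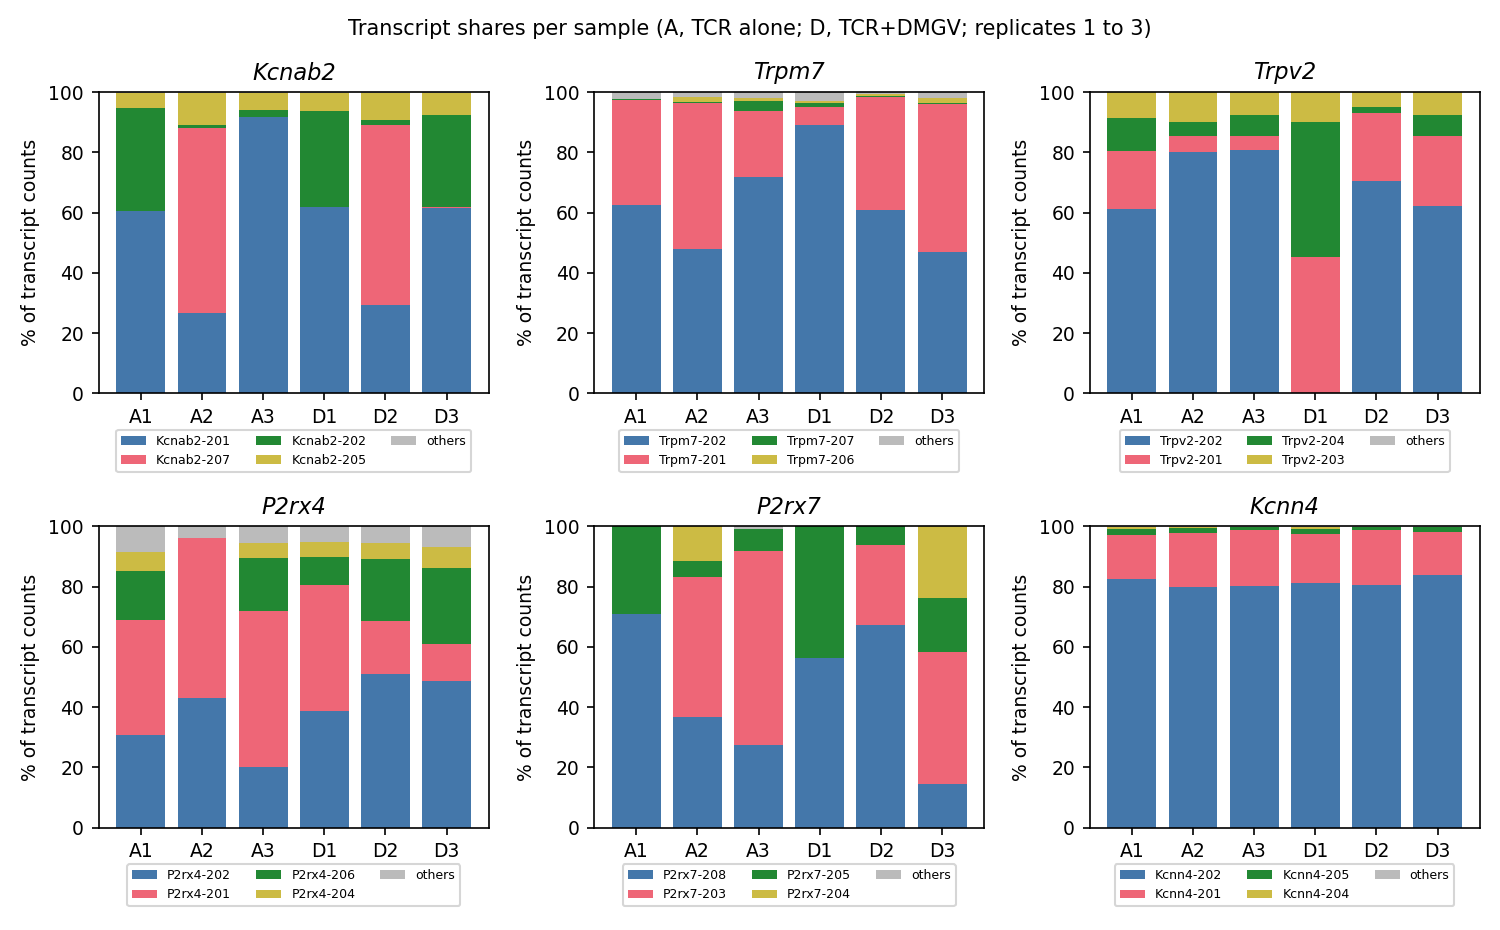
Share of each gene's transcript counts (vertical axis, percent) held by its 4 most abundant transcripts, in 6 genes and in each sample (A, TCR alone; D, TCR+DMGV; replicates 1 to 3). Kcnn4 is divided alike in all samples, whereas Kcnab2-207 appears in replicate 2 of each group and Trpv2-202 is missing from TCR+DMGV replicate 1.

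In the 12 channel families, 57 of 194 genes were tested and 0 passed the threshold in edgeR, in DESeq2 or in limma. At an unadjusted p under 0.05 edgeR found 3 of the 57, beside 3.19% of all tested genes, with 28 genes above and 29 below 0 and a median log2 fold change of -0.00477, beside 0.00243 over all genes. Of these, the inward rectifier Kcnj15, named after its values were seen, had 0.895, 1.32 and 1.40 CPM without and 0.202, 0.279 and 0.807 CPM with the compound. All TCR+DMGV samples lay below all TCR alone samples at these low levels, as for 3.94% of tested genes, and the log2 fold change was -1.49 with a standard error of 0.57 (unadjusted p = 0.0326, adjusted p = 0.999 in edgeR's test). In the potassium channel families of the members, 5 of 10 tested voltage-gated channels were above 0 and 5 below, 1 of 4 two-pore-domain channels was above, and 1 of 4 accessory subunits was above. Kcnn4 was the only calcium- or sodium-activated channel tested, Kcnn1 being at 0.0160 FPKM and Kcnma1 at 0 counts. The TRP channels divided into 3 above and 3 below 0, with Trpm6, the relative of Trpm7, at a log2 fold change of 0.37 (standard error 0.22), and Trpm1 at -0.28 (0.22). Of 4 LRRC8 subunits 3 were below 0, with Lrrc8c at -0.08 (standard error 0.077) and Lrrc8b at -0.11 (0.13), and of 3 P2X receptors 2 were above 0. In the families without a member, 7 of 9 voltage-gated calcium channel subunits, 3 of 5 other chloride channels, 2 of 3 sodium channel subunits, 1 of 3 inward rectifiers and 1 of 5 mechanosensitive, proton and large-pore channels were above 0. The most abundant calcium channel subunits were Cacnb3 (1.57 FPKM) and Cacnb1 (0.869 FPKM), the sodium channel list was led by Asic1 (0.239 FPKM), and the accessory subunits after Kcnab2 were Kcnmb4 (0.311 FPKM) and Kcnab3 (0.162 FPKM).

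No partner gene of the members passed the threshold in edgeR, in DESeq2 or in limma. Among regulators of Kcna3 and Kcnn4, 0 of 9 passed and 2 had an unadjusted p under 0.05, a larger share than the 3.19% of all tested genes. Nme2, the nucleoside diphosphate kinase that activates Kcnn4, had 412 ± 40.5 CPM without and 485 ± 33.7 CPM with DMGV (log2 fold change 0.24, standard error 0.095). Trim27, a ubiquitin ligase that inhibits the kinase upstream of Kcnn4, had 141 ± 25.3 and 178 ± 3.65 CPM (0.33, standard error 0.13). Its groups did not overlap, as for 8.86% of all tested genes. The lowest value of Trim27, 112 CPM, was in TCR alone replicate 3, a library that stood apart. TCR alone replicates 1 and 2 had 157 and 154 CPM, nearer to the 174 to 181 CPM of TCR+DMGV, and the change given includes replicate 3. Calmodulin, the calcium sensor bound to Kcnn4, was represented by Calm2 at 148 FPKM and a log2 fold change of -0.06 (standard error 0.12). Of 11 tested genes of magnesium transport 0 passed and 0 had an unadjusted p under 0.05, led in level by Magt1 (12.2 FPKM) and Slc41a1 (11.5 FPKM). Of 11 tested genes that handle ATP and adenosine around P2X receptors 0 passed and 0 had an unadjusted p under 0.05, led by the lysophospholipid receptor P2ry10 (23.2 FPKM) and the adenosine receptor Adora2a (11.5 FPKM), with the ATP-cleaving ectoenzyme Entpd1 at 0.352 FPKM. Of 12 tested ion pumps and cotransporters 0 passed and 1 had an unadjusted p under 0.05, the sodium pump subunit Atp1b1 with 28.7 ± 1.60 CPM without and 23.7 ± 2.54 CPM with DMGV (log2 fold change -0.28, standard error 0.11). Atp1b3, another subunit of the pump, had 107 FPKM.

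Over the 6 samples, the gene whose log2 CPM ran most like that of Trpm7 was Pde12 (Pearson r = 0.999), and 1047 of 11239 genes had an r above 0.9 with Trpm7. For the other members that number lay between 41 (Lrrc8a) and 212 (Trpv2). The nearest genes were Trav14-1 for Kcna3 (r = 0.987), Ncoa6 for Kcnn4 (0.998), Cdan1 for Kcnk5 (0.992), Adgre5 for Kcnab2 (0.983), Ndufb11 for Trpv2 (0.981), Ndufa3 for P2rx7 (0.990), Khk for P2rx4 (0.993) and Gm7887 for Lrrc8a (0.989). These are descriptions over the same 6 libraries, a pair of which stood apart on the first component. Between members, the values of r farthest from 0 were 0.857 for P2rx7 and P2rx4, 0.82 for Kcnk5 and Kcnab2, -0.814 for Trpm7 and Trpv2, -0.809 for Kcna3 and Lrrc8a and -0.756 for Trpm7 and Kcnab2.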

How the data were processed

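Total RNA of the 6 samples was extracted with TRIzol and made into mRNA libraries (VAHTS mRNA-seq V2), and a strand setting is not given in the sources used here. The authors filtered reads with SOAPnuke, mapped them with HISAT2 2.0.4 (submitters' processing notes) and estimated expression with StringTie. The authors deposited unnormalized whole-number counts for genes and for transcripts, and the step from StringTie to counts is not given in the sources used here. The deposited FPKM values are scaled by the authors to length and library total. The submitters' notes name mm9, but 99.7% of the versioned Ensembl gene identifiers, without version, are those of GENCODE M21 (GRCm38), from which symbols, coordinates and transcript sequences were taken.

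Gene counts were tested with edgeR 4.0.16 (TMM, filterByExpr, quasi-likelihood F test, two-sided, Benjamini-Hochberg, threshold 0.05) in R 4.3.3, transcript counts likewise, and transcript usage with diffSpliceDGE. Standard errors are the absolute log2 fold change divided by the square root of F. The alternatives included DESeq2 1.42.0 and limma 3.58.1 on log2(FPKM + 1) and log2(FPKM + 0.1). With 3 samples against 3, an exact permutation test cannot go below p = 0.1. The study calls the samples biological replicates; p-values measure the spread between these samples.

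The members, lists and most choices were made with earlier results of these data known. Besides the 9 members, the genes named are, of each channel family and partner list, the 2 of highest mean FPKM, the 1 of largest change with a mean log2 CPM above 1 and any past the threshold, the most abundant gene of a marker list, and the nearest gene by Pearson r; others are said to be chosen after their values were seen. Some genes that this rule names are not reported here. Of the marker lists not in the report, the most abundant genes were Itgax (dendritic cell, 0.713 FPKM), Eomes (NK cell, 13.2), Hbb-bs (erythroid, 1.39), Pf4 (platelet, 0.156) and Pecam1 (stroma and endothelium, 5.04). The rest of the NK cell list was low, with Ncr1 at 0.20, Klrb1c at 0.18 and Klra8 at 0.041 FPKM. So was that of the stroma and endothelium list, with Col1a1 at 0.014 and Col3a1 and Cdh5 at 0 FPKM. These genes are named after their values were seen. Coding transcripts were searched for the filter motif in Python 3.11.15 with pandas 2.3.3; matplotlib 3.10.9 drew the figures.

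The fits were tested on simulated counts. At the dispersion of the gene table, the gene-level fit found 54% of 200 changed genes, with 3.57% false calls. The 54% is for the size of change that was set, and recovery at the size of the members' estimates was not tested. At the dispersion of the transcript table the usage test found few (5.5%) of the genes whose usage was moved. At a low dispersion (0.01) the usage test found all of them, together with more false calls (20.6%) than the threshold allows.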

Additional observations from a re-analysis of the deposited data

How the results depend on the processing

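The counts of members, of channel family genes and of partner genes past the threshold were each 0 in all 15 alternatives to the edgeR fit. The count of all genes past it was 2 and moved to 14 with DESeq2, 12 with both libraries that stood apart left out, 1 with library size alone, 1 with all genes that had a count, 0 with limma on log2(FPKM + 1), 0 with limma on log2(FPKM + 0.1), and 0 to 5 with 1 sample left out. With the replicate number as a block it was 0, and genes called for transcript usage went from 123 to 48. Same-numbered samples had correlations of -0.154, 0.121 and -0.148 between their deviations from the group means, so that the numbers were not taken to pair the samples. Transcripts called went from 0 to 1 without TCR alone replicate 3 (0 to 1 with 1 sample left out), and genes called for usage to 196 to 225.

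Of the 81 values of members' changes in the alternatives that left out no single sample, 80 kept their sign. Kcnab2, with an estimate near 0, went to 0.0175 without both libraries, and with 1 sample left out it ran from -0.0418 to 0.0355, above 0 without TCR alone replicate 3 or TCR+DMGV replicate 3. Trpm7 ran from -0.3929 to 0.1605, above 0 without TCR alone replicate 1 or TCR+DMGV replicate 1, and P2rx4 from -0.0418, without TCR alone replicate 1, to 0.2629. Taken as CPM per kilobase of annotated exon, the mean level of every member was higher than in FPKM, and their order stayed the same. The rise was larger than the spread for Kcna3 (17.2), Kcnk5 (6.63), Kcnab2 (57.3), Trpv2 (8.39) and Lrrc8a (5.38). It was smaller than the spread for Kcnn4 (31.6), Trpm7 (6.02), P2rx4 (1.83) and P2rx7 (0.513). The leading transcript shares taken from transcript FPKM moved by less than their spread. P2rx7 had the lowest depth of the members, at 69 to 204 counts per sample.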
